A study of Mus musculus with 4 samples.

Results

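The genes described here are 41 nuclear receptor genes of the mouse, chosen by gene symbol and without a threshold on any measured value. The choice was made with earlier results of these data known. A called ChIP-Seq peak belonged to a gene when the deposited annotation named that gene as the nearest. Of the 17545 called peaks in the 4 lists, 147 were nearest to a nuclear receptor gene, and 24 of the 41 genes had at least 1 peak while 17 had none.

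The study mapped the glucocorticoid receptor (GR) and E2A, the E-protein transcription factors encoded by Tcf3 that include E47, in whole mouse liver. Each ChIP had 2 biological replicates, 4 samples in all. All 4 samples were labelled as untreated livers of male C57BL/6 mice on chow, of the genotype E47+/+, collected at ZT 10, that is 10 h after lights on. The labels give neither an age nor the number of animals behind a sample, and no group differed in genotype or treatment, so the comparisons are between the antibodies, between replicates and between nuclear receptor genes and the rest of the genome.

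The labels conflict in places. The descriptions of both E2A samples name a GR ChIP, and that of replicate 2 names E47-/- livers, whereas the titles, antibody and genotype fields say E2A in wild type and were followed here. GR replicate numbers are those of the labels, and the names of the lists give them the other way round. A supplement of the study calls the livers Dex-treated. According to the paper the E2A ChIP was made on the livers used for GR, so GR and E2A samples may share animals, but which samples do is not stated. At 5 well known GR target genes used as a check of the ChIP (Per1, Fkbp5, Tsc22d3, Tat and Pck1), both GR replicates had called peaks at 5 of 5. The GR lists held 4291 and 7334 peaks and the E2A lists 4028 and 1892. A list gives only the position, width and annotation of each peak. With no read count, height or q-value, the depth behind a peak is unknown, the strength of binding was not measured, and a gene with no called peak may still be bound.

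Nuclear receptors are transcription factors that bind DNA mostly as dimers and, in many cases, respond to small lipophilic ligands such as steroids, bile acids, fatty acids, retinoids and thyroid hormone. GR binds as a dimer to glucocorticoid response elements (GREs), inverted repeats of an AGAACA-type hexamer, while the RXR partners and several orphan receptors read direct repeats of AGGTCA. In hepatocytes this family couples bile acid, lipid, glucose and drug metabolism to hormones and nutrients, and E-proteins bind the short E-Box CANNTG.

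The GREs closest to the consensus in GR peaks at nuclear receptor genes are shown first, because they are the sequence GR itself recognises. In GR peaks called in both replicates or shared with E2A, the best match in each peak was taken, and of tied matches the one with the lowest position. The 6 with at most 1 mismatch are printed on the forward strand of mm10, with the 15-base GRE in capitals. None was taken from the chromosome of Nr3c1.
Nr5a2, chr1:137034737-137034766: agaataaGGGACAGTTTGTTCTgagccaaa
Nr0b2, chr4:133557261-133557290: aagcctgAGAATACTGTGTCCTgagcccag
Rxra, chr2:27596197-27596226: cagggatAGGACATGGTTTTCCctgctttg
Rxra, chr2:27599219-27599248: ctgtgcaAGAACATTTTGTCTCctctccag
Rxra, chr2:27625182-27625211: ggtggcaGGAACACTTGGTTCCtggaactc
Thrb, chr14:17725469-17725498: cttgggtAGTACAAGTTGTCCTatgccacc
The Nr5a2 site had 0 mismatches and was the only such match among them. Of the other 5, those at Rxra were intergenic and upstream of the gene, that at Nr0b2 was downstream of it, and the Thrb site lay in intron 1 of Thrb. The farthest upstream Rxra region held another match with 1 mismatch, chr2:27597210-27597224, which is not printed. That match lies inside the peak of E2A replicate 1, whereas the printed site of the region lies outside it.

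The intergenic or intronic regions called in all 4 samples show where GR and E2A peaks coincided. The stretch common to the 4 peaks is printed, or its central 250 bases, on the forward strand of mm10, with each E-Box and the best GRE in capitals. All 6 such regions are given, upstream of Nr2c1 and Nr4a1, upstream of Rxra and downstream of Nr0b2.
Nr2c1, chr10:94098144-94098382: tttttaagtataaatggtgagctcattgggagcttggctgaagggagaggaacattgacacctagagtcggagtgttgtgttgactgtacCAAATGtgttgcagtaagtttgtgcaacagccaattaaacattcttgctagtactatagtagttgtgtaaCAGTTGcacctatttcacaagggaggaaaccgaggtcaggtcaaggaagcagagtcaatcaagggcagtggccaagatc
Nr4a1, chr15:101246547-101246796: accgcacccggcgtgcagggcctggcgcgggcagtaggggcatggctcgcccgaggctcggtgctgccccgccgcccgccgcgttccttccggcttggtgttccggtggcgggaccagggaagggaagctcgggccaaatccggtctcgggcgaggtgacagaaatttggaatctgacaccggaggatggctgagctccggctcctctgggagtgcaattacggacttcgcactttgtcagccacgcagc
Rxra, chr2:27599166-27599415: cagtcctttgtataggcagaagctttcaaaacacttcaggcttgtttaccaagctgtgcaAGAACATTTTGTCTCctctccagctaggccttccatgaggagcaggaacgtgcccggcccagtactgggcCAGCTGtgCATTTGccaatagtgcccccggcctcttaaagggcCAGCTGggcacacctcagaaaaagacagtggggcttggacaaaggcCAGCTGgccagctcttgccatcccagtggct
Rxra, chr2:27624934-27625183: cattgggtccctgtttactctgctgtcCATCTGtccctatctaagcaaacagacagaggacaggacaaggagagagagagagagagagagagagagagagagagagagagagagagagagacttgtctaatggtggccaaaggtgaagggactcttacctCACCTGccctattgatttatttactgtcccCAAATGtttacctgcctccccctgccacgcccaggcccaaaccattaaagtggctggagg
Nr0b2, chr4:133557436-133557685: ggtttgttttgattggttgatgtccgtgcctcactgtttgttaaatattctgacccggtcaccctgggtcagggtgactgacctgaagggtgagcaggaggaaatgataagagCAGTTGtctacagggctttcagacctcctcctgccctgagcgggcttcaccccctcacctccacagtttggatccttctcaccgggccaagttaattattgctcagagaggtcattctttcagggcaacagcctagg
Nr0b2, chr4:133563239-133563488: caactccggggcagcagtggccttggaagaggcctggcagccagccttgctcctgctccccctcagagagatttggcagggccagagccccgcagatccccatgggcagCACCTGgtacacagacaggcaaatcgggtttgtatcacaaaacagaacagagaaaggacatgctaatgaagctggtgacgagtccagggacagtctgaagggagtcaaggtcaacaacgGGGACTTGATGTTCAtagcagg
The Nr2c1 sequence lies in an intron of the neighbouring gene Fgd6 and held 2 E-Boxes. The Nr4a1 sequence overlapped no GENCODE gene and held 0 E-Boxes and 0 GREs. The Rxra and Nr0b2 sequences also lay outside any gene. In the farther upstream Rxra sequence 4 E-Boxes and a GRE with 1 mismatch were found, and the nearer held 3 E-Boxes and 0 GREs, the GRE listed for that region lying just beyond its end. Of the Nr0b2 sequences, the nearer held 1 E-Box and 0 GREs, and the farther 1 E-Box and a GRE with 2 mismatches.

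Nr0b2 had calls in all 4 samples, and its promoter is printed because GR replicate 1, GR replicate 2 and E2A replicate 1 had a peak over it. The 250 bases upstream of the start site come from RefSeq (GRCm38), and E-Boxes are in capitals.
Nr0b2, chr4:133553126-133553375: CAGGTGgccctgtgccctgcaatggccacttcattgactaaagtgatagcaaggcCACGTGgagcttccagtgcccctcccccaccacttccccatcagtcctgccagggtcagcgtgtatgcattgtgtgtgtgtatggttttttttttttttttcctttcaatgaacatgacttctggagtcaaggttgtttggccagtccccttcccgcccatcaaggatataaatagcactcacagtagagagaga
The stretch held 2 E-Boxes, and 66.2% of the 32851 RefSeq promoter windows of this length held at least 1. The sequence of the second, CACGTG, was present in 6.02% of them, and the share with that of the first, CAGGTG, is not given. These matches describe the sequence and are not mapped sites.

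Nuclear receptor genes had called peaks more often than protein-coding genes as a whole. GR peaks in at least 1 replicate were nearest to 23 of 41 (56.1%, 95% Wilson interval 41 to 70.1%), against 23.7% of 21887 protein-coding genes. For both replicates the numbers were 14 of 41 (34.1%) and 9.32%. E2A peaks were nearest to 22 of 41 (53.7%, 38.7 to 67.9%), against 13.9% of all genes, and to 7 of 41 in both replicates (17.1%), against 4.63%. At 6 of these 7 the replicates called overlapping peaks, and at Ppara they called different sites. Overlap of GR with E2A by 1 bp or more occurred at 15 of 41 (36.6%, 23.6 to 51.9%), against 8.62% of all genes. No test was made, because the list was chosen with earlier results of these data known, and Wilson intervals cover counting error only. For a comparison between the ChIPs, an exact permutation test with 2 samples per ChIP cannot give a p below 0.333.

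The size of the lists differed between replicates, and so did these counts. GR replicate 1 had 40 peaks at 16 nuclear receptor genes and replicate 2 had 52 peaks at 21. In E2A replicate 1 there were 43 peaks at 20 of the genes, and replicate 2 had 12 peaks at 9. As a share of the whole list, nuclear receptor genes took 0.932% and 0.709% of GR peaks and 1.07% and 0.634% of E2A peaks, so the ranges of the ChIPs overlapped. The count for E2A rested mainly on replicate 1, since 9 genes had an E2A peak without it, and 7 rather than 15 then had a shared peak. The shares of all genes without E2A replicate 1 were not set beside these counts, so whether they exceed those of all genes is not shown.

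**Figure D1:**
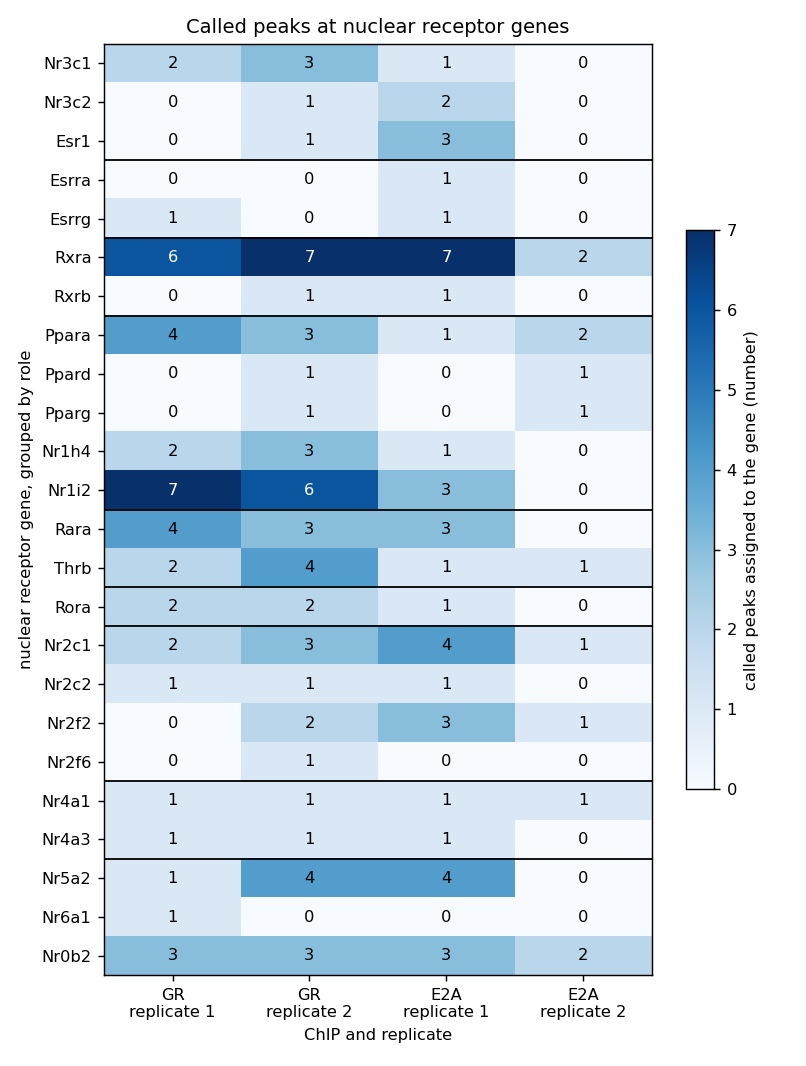
Number of called peaks (colour and digits) assigned to each of the 24 nuclear receptor genes with a peak, in each ChIP and replicate. Rows are genes grouped by role, separated by lines, and Rxra and Nr1i2 have up to 7 peaks in a sample while most genes have 3 or fewer.

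Because a gene in a large intergenic space collects more nearest peaks, promoter peaks alone were also counted. At least 1 GR replicate had a peak annotated as promoter at 17 of 41 nuclear receptor genes (41.5%), against 18.5% of all genes, and both replicates at 8 of 41 (19.5%), against 5.24%. Those 8 were Nr3c1, Rxra, Ppara, Nr1i2, Rara, Nr2c1, Nr2c2 and Nr0b2. E2A promoter peaks were called at 11 of 41 (26.8%), against 7.93% of all genes. In both E2A replicates a promoter peak was called at 0 of 41 (upper Wilson bound 8.57%), against 2.09%.

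Among the peaks themselves, a smaller share lay at promoters than in the whole series, a difference that depended on the assignment of peaks to the nearest gene. After overlapping replicate peaks were merged, 61 GR and 47 E2A peaks remained. Promoters held 19 of the 61 GR peaks (31.1%, 20.9 to 43.6%), against 50.4% of all merged GR peaks, and 11 of the 47 E2A peaks (23.4%, 13.6 to 37.2%), against 39.1%. When every GR peak within 50 kb of a GENCODE start site was counted instead, the promoter share was 48.2% (37.9 to 58.7%), an interval that includes the 50.4% of the series. With the nearest gene, the direction was the same in each sample. Promoter shares were 22.5% and 34.6% for GR at these genes, where the whole lists had 34.3% and 57.4%, and 18.6% and 25% for E2A, where the whole lists had 41.2% and 37.1%. Outside promoters, the median distance to the start site was 11718 bp and 13240 bp in the GR replicates and 18782 bp and 19894 bp in E2A. Over all non-promoter peaks of the same samples these medians were 14461, 12700, 14553 and 14409 bp.

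**Figure D2:**
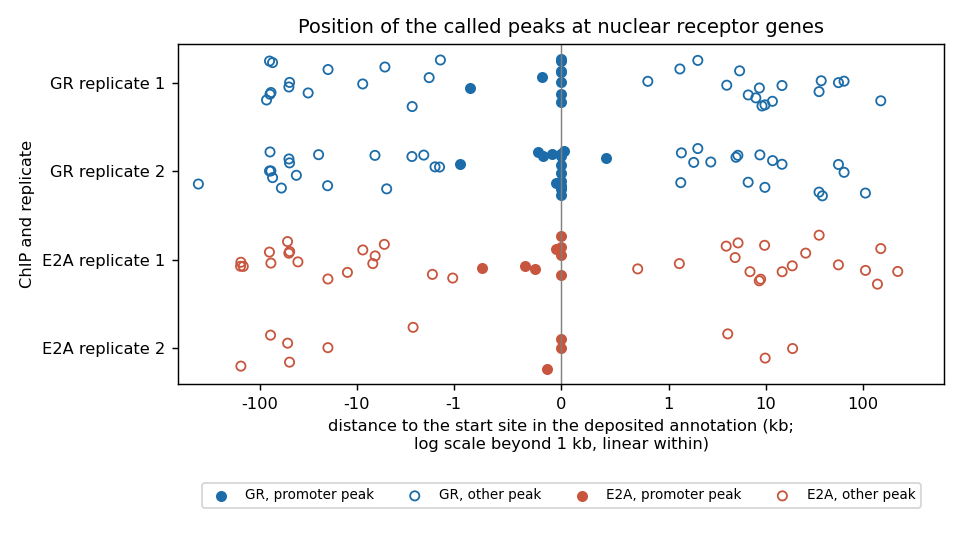
Signed distance in kb from each of the 147 called peaks to the start site in the deposited annotation (x axis, log scale beyond 1 kb), by ChIP and replicate (y axis). Each circle is a peak, filled if annotated as promoter and jittered vertically, and most circles in every sample are open: 31 of 40, 34 of 52, 35 of 43 and 9 of 12.

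Calls in both replicates were more frequent than in the series for GR, and for E2A the interval included the series value. Of the 61 GR peaks at nuclear receptor genes, 30 were called in both replicates (49.2%, 37.1 to 61.4%), against 31.1% of all merged GR peaks. Of the 47 E2A peaks, 8 were (17%, 8.89 to 30.1%), against 23.4%. E2A met 30 of the 61 GR peaks (49.2%), against 30.7% over the series, and GR met 31 of the 47 E2A peaks (66%, 51.7 to 77.8%), against 58.1%. Without E2A replicate 1, E2A met 16.4% of the GR peaks (9.16 to 27.6%), against 13% over the series, and with only peaks called in both replicates of each ChIP 20% (9.51 to 37.3%), against 17.1%. Both intervals include the series value. Peaks of 1 gene are not independent, and Rxra and Nr1i2 held 8 of the 61 each. Among GR peaks called in both replicates, E2A met 20 of 30 (66.7%, 48.8 to 80.8%), against 46.5% of all such peaks. Where GR had a peak in replicate 2 only, E2A met 8 of 22 (36.4%, 19.7 to 57%), against 22.5%, and where it had a peak in replicate 1 only, 2 of 9 (22.2%, 6.32 to 54.7%), against 26.7%.

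**Figure D3:**
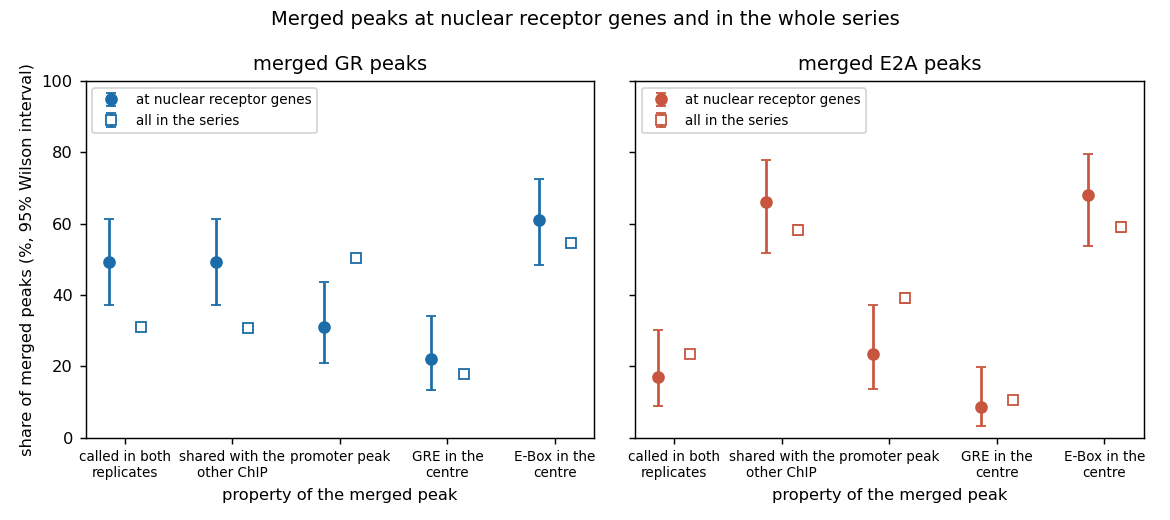
Share of merged GR peaks (left) and merged E2A peaks (right) with each property, in percent, at nuclear receptor genes (filled circles) and over the series (open squares), with 95% Wilson intervals for counting error. For GR the circle is above the square for replication and sharing (both 49.2%) and below it for promoters (31.1%).

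Pooling all 4 lists gave 77 loci at nuclear receptor genes. A single sample called 35 of them (45.5%, 34.8 to 56.5%), against 58.7% of 10755 loci in the series. All 4 samples called 6 (7.79%, 3.62 to 16%), against 4.44%. The pattern of both GR replicates with E2A replicate 1 but not replicate 2 held 12 loci (15.6%), against 6.05% of the series. GR replicate 2 alone accounted for 14 (18.2%), against 33% of the series, and E2A replicate 1 alone for 14 (18.2%), against 12.5%.

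**Figure D4:**
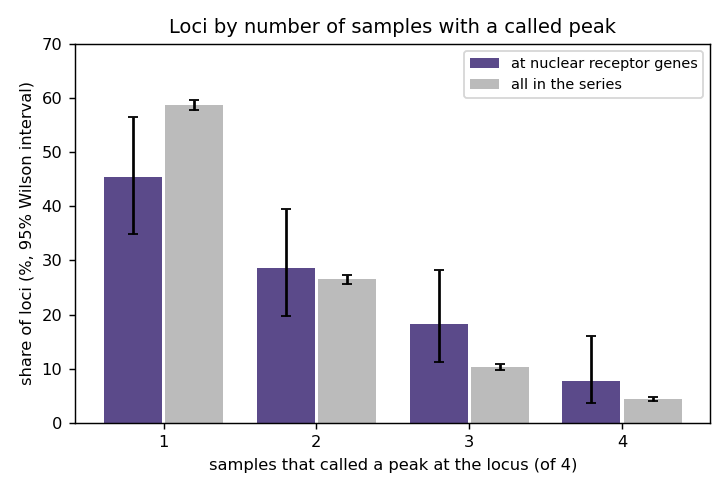
Share of loci in percent (bars, with 95% Wilson intervals) by the number of samples with a called peak, for the 77 loci at nuclear receptor genes and the 10755 loci of the series. The bar for 1 sample is lower at nuclear receptor genes, 45.5% against 58.7%, and the bars for 3 and 4 samples are higher.

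The first steroid receptor considered is GR itself. Nr3c1 lies on the reverse strand of chromosome 18 (mm10, 39410545 to 39519421 in GENCODE). GR peaks were called at its own gene in both replicates, 2 in replicate 1 and 3 in replicate 2. At the promoter, replicate 1 had a peak at chr18:39489649-39490079 and replicate 2 at chr18:39489533-39490089, both over the annotated start site. A peak in intron 1 of 7 was called at chr18:39430656-39430933 in replicate 1 and at chr18:39430627-39430916 in replicate 2, 56312 and 56329 bp from the start. The third peak, chr18:39491334-39491618, was 1558 bp upstream of that start and was called in replicate 2 only. GENCODE places it inside the gene and outside its exons, although the deposited annotation calls it distal intergenic.

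E2A coincided with GR at the intronic element of Nr3c1 and not at the promoter. E2A replicate 1 had 1 peak, chr18:39430512-39430977, which covered the intronic GR peak of both replicates. E2A replicate 2 had 0 peaks at Nr3c1, and the E2A peak closest to any start site of the gene was 56255 bp away.

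The other steroid receptors had sparse calls, none of them in both replicates of a ChIP. Nr3c2, the mineralocorticoid receptor, had a GR promoter peak in replicate 2 only, 53 bp from the start, and 2 E2A peaks in replicate 1, in introns 2 and 3 of 8. Esr1, oestrogen receptor alpha, had 1 GR peak in replicate 2, 24826 bp upstream, and 3 E2A peaks in replicate 1, at 6841 bp upstream and in introns 1 and 5 of 7. GR and E2A peaks did not touch at either gene. Pgr and Esr2, the progesterone receptor and oestrogen receptor beta, had none.

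Oestrogen-related receptors, orphan regulators of oxidative metabolism, had 1 shared site. In intron 1 of Esrrg, GR replicate 1 (chr1:187763051-187763392) and E2A replicate 1 (chr1:187763045-187763449) had peaks over nearly the same bases, and neither replicate 2 had a call there. Esrra had an E2A promoter peak in replicate 1, 333 bp from the start and over exon sequence of the adjacent gene Catsperz, and no GR peak. Esrrb had none.

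Rxra carried the largest number of called peaks. It encodes RXR alpha, the main hepatic RXR and the dimer partner of the PPARs, FXR, PXR and the retinoic acid and thyroid hormone receptors. It lies on chromosome 2 (27676440 to 27762957, forward strand) and had 6 and 7 GR peaks in replicates 1 and 2, and 7 and 2 E2A peaks. Merging left 8 GR peaks, 5 of them called in both replicates and 6 met by E2A, and 7 E2A peaks, all 7 of which met GR.

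The Rxra sites called in all 4 samples lay far upstream. The farthest GR region, chr2:27595862-27597501, was called in both GR replicates, 79700 and 79730 bp upstream, and in E2A replicate 1. The next, chr2:27598911-27600208, was called in all 4 samples, and it holds the second of the Rxra GREs listed above and the printed stretch with 4 E-Boxes. The region chr2:27624803-27626977, again called in all 4 samples, was 50298 bp upstream in GR replicate 1. Within it E2A replicate 1 had 2 separate peaks and replicate 2 had 1, and the 389 bp common to the 4 samples contain the third Rxra GRE.

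Nearer the gene, E2A calls came from replicate 1 alone. A region 5129 bp upstream in GR replicate 1 (chr2:27671685-27672283) was called in both GR replicates and E2A replicate 1, as was the promoter (chr2:27675762-27677030). In intron 1 of 9, GR replicate 2 and E2A replicate 1 shared a peak 4928 bp downstream of the start. Another intron 1 peak 1804 bp downstream was called in GR replicate 2 only, and a peak in intron 4 in GR replicate 1 only.

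At Rxrb, encoding RXR beta, GR replicate 2 and E2A replicate 1 shared a promoter peak (chr17:34031793-34032563 in GR). The start site of Slc39a7 lies within 1000 bp of it, so the peak cannot be assigned to either gene. Rxrg, encoding RXR gamma, had no peak.

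**Figure D5:**
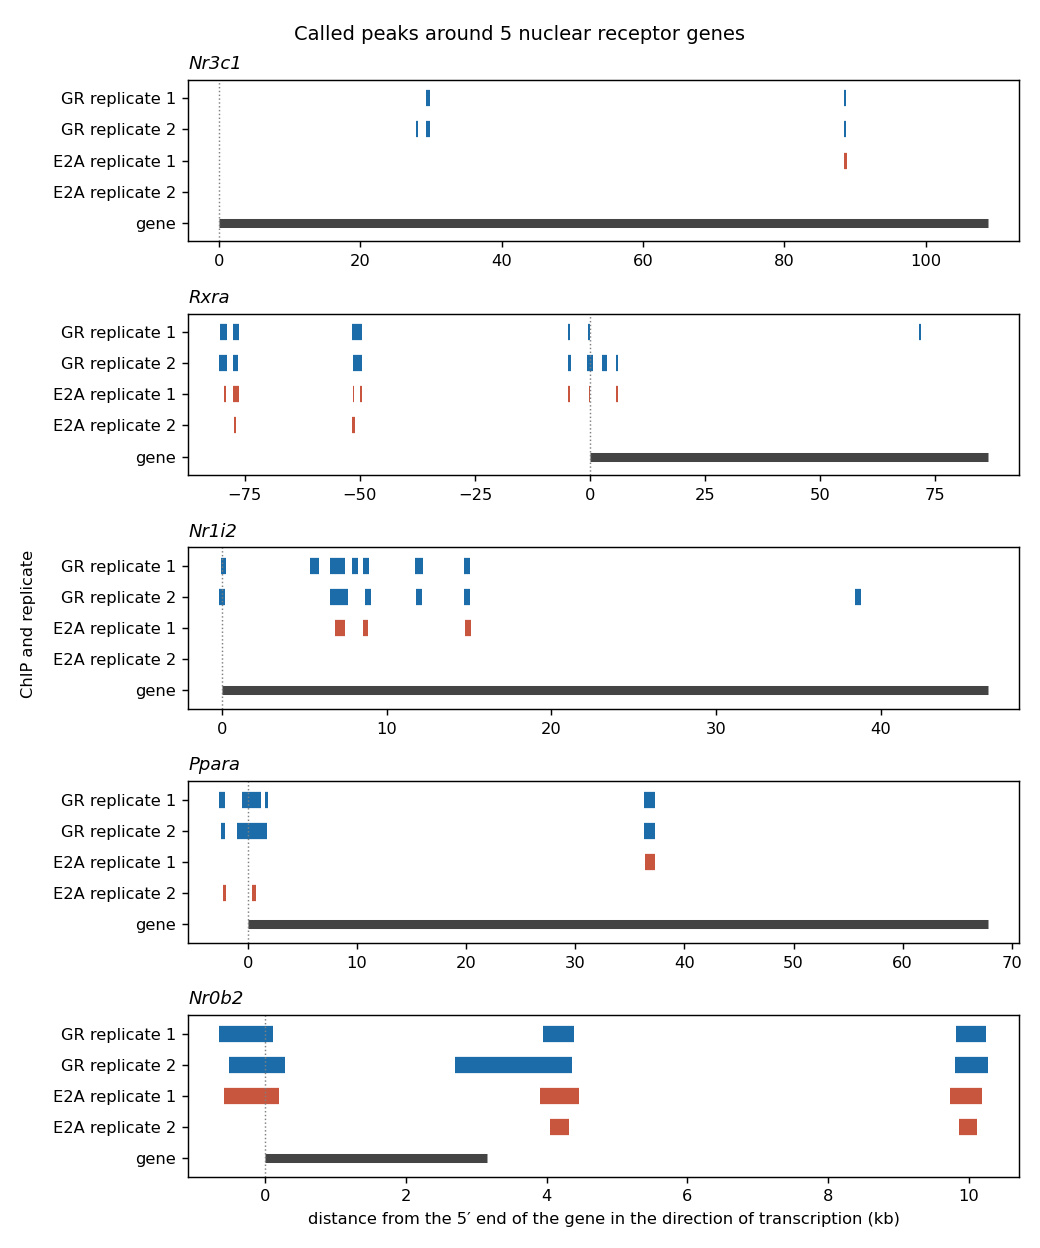
Called peaks (blocks, to scale) around 5 nuclear receptor genes in each ChIP and replicate, against the distance in kb from the 5′ end of the GENCODE gene (dark bar) in the direction of transcription. Shared E2A peaks lie upstream of Rxra, at its promoter and in its intron 1, and at the promoter of Nr0b2 and downstream of it. They also lie in intron 1 of Nr1i2, in an intron of Nr3c1 and at all 3 Ppara regions. E2A replicate 2 has no block at Nr3c1 or Nr1i2.

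Of the 9 genes encoding sensors of lipids, bile acids and xenobiotics, 5 had a GR peak and 4 a shared peak, as 23 and 15 of the 41 nuclear receptor genes did. Ppara, the fatty acid sensor that drives hepatic fatty acid oxidation and ketogenesis, lies on chromosome 15 (85734983 to 85802819, forward strand). GR replicate 1 had 4 peaks and replicate 2 had 3, E2A replicate 1 had 1 and replicate 2 had 2. These merged into 3 GR regions, all called in both GR replicates and all met by E2A, but by different E2A replicates.

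The Ppara promoter region spanned chr15:85733945-85736833. A single GR peak of 2752 bp in replicate 2 covered the replicate 1 peak over the start site and overlapped part of another in the 5′ UTR, and E2A replicate 2 had a peak inside it at chr15:85735397-85735730. The upstream region chr15:85732360-85732881, 2683 bp from the start in GR replicate 1, was likewise met by E2A replicate 2. In intron 2 of 7, chr15:85771258-85772291 was called in both GR replicates and E2A replicate 1 (chr15:85771346-85772289).

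The other PPAR genes had single promoter sites. At Ppard, GR replicate 2 (chr17:28232585-28232928) and E2A replicate 2 (chr17:28232477-28232766) had overlapping peaks over the start site. Pparg, better known for adipocyte differentiation, had overlapping GR and E2A peaks in the replicates 2 as well (chr6:115421544-115421980 and chr6:115421639-115421931), at an internal promoter 86 and 135 bp from the start. Neither gene had a call in replicate 1 of GR or E2A.

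Nr1i2, encoding the pregnane X receptor PXR that induces drug-metabolising enzymes, had as many merged GR peaks as Rxra, 8. It lies on the reverse strand of chromosome 16 (38248323 to 38294824). GR replicate 1 had 7 peaks and replicate 2 had 6, and 5 of the merged peaks were called in both. E2A replicate 1 had 3 and replicate 2 had 0.

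The GR peaks of Nr1i2 were clustered in intron 1 of 8. Counted from the start site, those called in both replicates lay at 14716, 11718, 8595 and 6595 bp in replicate 1 and at 14720, 11761, 8699 and 6580 bp in replicate 2, and the fifth covered the promoter (chr16:38294578-38294975). Replicate 1 alone had peaks at 7902 and 5372 bp, and replicate 2 alone had a peak in intron 2 at 38434 bp. The E2A peaks of replicate 1 lay at 14772, 8568 and 6872 bp, each over a GR peak of both replicates. No E2A peak was called at the Nr1i2 promoter.

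At Nr1h4, encoding the bile acid receptor FXR, GR and E2A peaks were separate. GR replicate 1 had 2 peaks and replicate 2 had 3, of which a peak in intron 1 (chr10:89531899-89532324) was called in both. The remaining GR peaks were a promoter and an intron 1 peak in replicate 2 and a peak 31826 bp upstream in replicate 1, and the only E2A peak was in intron 1 in replicate 1.

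No peak was assigned to Nr1h2 and Nr1h3 (the oxysterol receptors LXR beta and LXR alpha), Nr1i3 (the xenobiotic receptor CAR) or Vdr (the vitamin D receptor). For some of them the nearest-gene rule decided this. A GR peak of replicate 2 at chr2:91202508-91202976 overlapped a GENCODE start site of Nr1h3 but was annotated to Acp2. GR and E2A peaks assigned to Apoa2 lay 6819 and 6432 bp from a start site of Nr1i3. At Vdr the nearest GR peak was 612332 bp away.

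Among the retinoic acid and thyroid hormone receptors, Rara and Thrb had peaks and Rarb, Rarg and Thra had none assigned. Rara, on chromosome 11 (98927818 to 98974942, forward strand), encodes retinoic acid receptor alpha and uses several start sites. GR replicate 1 had 4 peaks and replicate 2 had 3, while E2A replicate 1 had 3 and replicate 2 had 0. The GR peaks called in both replicates, at an internal promoter (chr11:98960406-98960723) and in intron 2 (chr11:98962459-98962751), met no E2A peak. The shared peaks were each called in 1 replicate per ChIP. At another promoter, chr11:98937269-98937909, GR replicate 2 met E2A replicate 1, and in intron 2, at chr11:98951304-98951776, GR replicate 1 met E2A replicate 1. A last GR promoter peak (chr11:98964863-98965127) was called in replicate 1 only, and the third E2A peak lay in intron 2 (chr11:98963483-98963849).

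Thrb, encoding the thyroid hormone receptor that predominates in liver, had GR peaks at the promoter and in intron 1, and E2A peaks in another intron. GR replicate 1 had 2 peaks and replicate 2 had 4. Replicate 2 alone had a promoter peak over the start (chr14:17660581-17661092) and a peak at chr14:17784582-17784844 in intron 1. Both replicates had peaks in intron 1 of 9 at chr14:17725283-17725625, where the GRE printed above lies, and at chr14:17747873-17748193. Both E2A replicates had 1 peak, in intron 2 (chr14:17845734-17846237), and it met no GR peak.

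Rora, a retinoid-related orphan receptor that acts in the circadian clock and lipid metabolism, had 2 GR peaks in each replicate. Replicate 1 alone had a peak in intron 1, 85580 bp upstream of a start site. An intron 2 peak, 1371 and 1400 bp upstream of an internal start, was called in both, and GR replicate 2 had a peak over that start. A peak of E2A replicate 1 that lay 1282 bp downstream of it met no GR peak. Rorb had none.

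Nr2c1 and Nr2c2, the orphan testicular receptors of the NR2 family, shared GR and E2A peaks at their promoters. At Nr2c1 (chromosome 10, 94148023 to 94197211), GR replicate 1 had 2 peaks, GR replicate 2 had 3, E2A replicate 1 had 4 and E2A replicate 2 had 1, and all 3 merged GR peaks met E2A. The promoter peak (chr10:94147917-94148273) was called in both GR replicates and E2A replicate 1. The region in intron 5 of Fgd6, 49472 bp upstream of Nr2c1 in GR replicate 1 (chr10:94098134-94098459), was called in all 4 samples and is printed above. In intron 2 of Nr2c1, GR replicate 2 and E2A replicate 1 overlapped (chr10:94161438-94161809 in GR), and E2A replicate 1 had a further peak in intron 8 of Fgd6. The Nr2c2 promoter peak (chr6:92091692-92092253) was called in both GR replicates and met E2A replicate 1.

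In the same family, Nr2f2, encoding the orphan receptor COUP-TFII, had separate GR and E2A sites. GR replicate 2 had a peak annotated as promoter, inside the gene and 938 bp from a start site, and a peak 432522 bp upstream. E2A replicate 1 had 3 peaks upstream, and the one at 157458 bp was also called in E2A replicate 2. For Nr2f6 the only call was a promoter peak in GR replicate 2. Nr2f1, Nr2e3 and Hnf4g had none.

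The NR4A receptors are immediate early genes whose products act without a known physiological ligand. Nr4a1 had exactly 1 peak in each of the 4 samples, over the same region, chr15:101246358-101247015 in the merged GR peaks and chr15:101246068-101246952 in the merged E2A peaks. The deposited distance put it 19831 to 20045 bp upstream in the GR replicates, whereas GENCODE has a start site of the gene 7254 bp away. At Nr4a3, both GR replicates had a peak near chr4:48042948-48043513, 1792 bp upstream in replicate 1. E2A replicate 1 (chr4:48043325-48043647) met the GR peak of replicate 1 and not that of replicate 2. Nr4a2 had none.

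Nr5a2, encoding LRH-1, a regulator of bile acid synthesis and cholesterol transport in liver, had 1 GR peak in replicate 1 and 4 in replicate 2. It lies on the reverse strand of chromosome 1 (136842571 to 136960448). The peak called in both GR replicates, chr1:137034550-137034922, was 74128 bp upstream in replicate 1 and contains the GRE without mismatch, and no E2A peak met it. E2A replicate 1 had 4 peaks, of which those 6468 bp upstream (chr1:136966916-136967196) and downstream of the gene (chr1:136842145-136842446) met GR peaks of replicate 2. The remaining E2A peaks were at the promoter, 248 bp from the start, and in intron 1, and GR replicate 2 had a further peak 60120 bp upstream. Nr6a1 had a GR peak in intron 1 in replicate 1, and Nr5a1, the steroidogenic factor of adrenal and gonad, had none.

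The last member is Nr0b2. It encodes SHP, an atypical receptor that lacks a DNA-binding domain and represses other receptors, among them LRH-1 at bile acid synthesis genes. It is a short gene on chromosome 4 (133553376 to 133556536, forward strand) with 3 GR peaks in each replicate, while the E2A replicates had 3 and 2. All 3 merged GR peaks were called in both GR replicates and met E2A.

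Each of the Nr0b2 regions recurred closely across samples. The promoter peak covered chr4:133552727-133553494, chr4:133552861-133553664 and chr4:133552793-133553572 in GR replicate 1, GR replicate 2 and E2A replicate 1. Downstream of the gene, peaks began 3956, 2706, 3904 and 4050 bp from the start in GR replicates 1 and 2 and E2A replicates 1 and 2. The second of these, 1654 bp wide, reached back into the 3′ UTR. The farther region began at 9813, 9799, 9729 and 9861 bp in the same order.

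At the level of sequence, GR peaks at nuclear receptor genes held GREs at a rate whose interval included that of all GR peaks. A GRE here is a match with at most 2 mismatches to the inverted repeat with 3 bases between the hexamers, on either strand, in the central 200 bp of a merged peak no wider than 2000 bp. It was present in 13 of 59 windows (22%, 13.4 to 34.1%), against 17.8% of all GR windows. All 13 were outside promoters, 13 of 41 (31.7%, 19.6 to 47%) against 28.2% over the series. Promoter windows held 0 of 18 (upper Wilson bound 17.6%), against 7.59%. The level depended on the search: with at most 1 mismatch it was 3.39% (0.935 to 11.5%), against 5.29%, and over the whole peak 40.7% (29.1 to 53.4%), against 31.7%.

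Direct repeats and E-Boxes were counted in the same windows. DR1, a direct repeat of AGGTCA with 1 base between and at most 2 mismatches, was in 8 of 59 GR windows (13.6%, 7.03 to 24.5%), against 11.3%, and in 10 of 47 E2A windows (21.3%, 12 to 34.9%), against 12%. In GR windows at promoters it was in 4 of 18 (22.2%, 9 to 45.2%), against 6.16%, and elsewhere in 4 of 41 (9.76%, 3.86 to 22.5%), against 16.5%. The promoter count rests on 4 windows. CANNTG was in 36 of 59 GR windows (61%), against 54.6%, and in 32 of 47 E2A windows (68.1%), against 59.2%. The E2A windows held a GRE in 4 of 47 (8.51%), against 10.5%. The median GC content of the windows at these genes was 52.5% for GR and 51.5% for E2A, below the 56.5% and 53% of all windows, and its part in these shares was not tested.

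Known targets of these receptors were looked at as well. The list holds 20 genes known as targets of PPAR alpha, FXR, PXR, CAR, LXR, LRH-1 or the thyroid hormone, retinoid or vitamin D receptors. GR peaks were nearest to 11 of them, to 10 in both replicates, and E2A peaks to 7, to 2 in both replicates, while 4 had a shared peak. Over all protein-coding genes the corresponding shares were 23.7%, 9.32%, 13.9%, 4.63% and 8.62%. Cyp7a1, the rate-limiting enzyme of bile acid synthesis and a target of SHP and LRH-1, had 2 and 5 GR peaks and 0 E2A peaks in either replicate. Cyp3a11, a PXR target, had 1 and 0 GR peaks but 8 and 1 E2A peaks. Thrsp, a thyroid hormone target in lipogenesis, had 6 and 4 GR peaks and 2 and 2 E2A peaks, and shared peaks were found at Cyp8b1, Slc10a1, Thrsp and Cyp26a1. The 8 genes to which no peak of either ChIP was assigned were Abcb11, Cyp2b10, Pdk4, Cyp4a14, Fgf21, Abcg5, Me1 and Cyp24a1. Under the nearest-gene rule a peak close to one of them can be assigned to another gene. Abcg8, of the same list as Abcg5, had 4 and 2 GR peaks. Of the 5 GR markers, 5 had GR peaks in both replicates and 4 a shared peak, with Tat at 8 and 9 GR peaks and 4 and 3 E2A peaks.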

How the data were processed

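GR and E2A ChIP-Seq peaks of wild-type mouse liver were analysed, with 2 biological replicates per ChIP. To make the deposited lists, the authors aligned reads to mm10, removed duplicates, kept unique read pairs, downsampled them to a fixed number per ChIP and called peaks in each sample. The submitters' processing notes list BWA 0.7.13, Picard 1.119 and MACS2 2.1.0. The paper's methods name other versions of Picard and MACS2, and which made the lists is not known. The control, peak threshold and annotation tool are not given in the sources used here. The deposited values are positions, widths and distances in bp with the nearest gene, and no counts.

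Replicate peaks sharing at least 1 bp were merged per ChIP, and GR and E2A peaks sharing at least 1 bp were called shared. A merged peak was a promoter peak where the deposited annotation of any of its peaks said so. Genes were located with GENCODE M21 and RefSeq GRCm38.p6, and all 17545 peaks lie inside the chromosomes. Shares have 95% Wilson intervals. The overlap and motif code was tested on simulated data. Python 3.11.15, numpy 2.4.6, pandas 2.3.3, scipy 1.17.1, pysam 0.24.0, matplotlib 3.10.9 and samtools 1.23.1 were used.

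The genes and lists were chosen with earlier results of these data known. Named with every peak were Nr3c1 and the 15 genes with a shared peak, Nr3c1 among them, the other genes by number of peaks, feature and distance, and genes without peaks by name. The alternatives left out each replicate in turn, required both replicates, used all peaks within 50 kb of a start site, left out peaks over 2000 bp, required 50% overlap, defined promoters by distance and changed the GRE search. Liver cell types cannot be checked from peak lists. Counts of promoter peaks per gene, of loci by sample and of the TCAAGGTCA motif were chosen after seeing the data. A gene of the target list is not reported here.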

Additional observations from a re-analysis of the deposited data

How the results depend on the processing

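Of 41 alternatives, 29 left the value close to that reported and 12 moved it. Requiring both replicates of a ChIP lowered the genes with a GR peak from 23 to 14, those with an E2A peak from 22 to 6 (overlapping peaks required, so without Ppara), those with a shared peak from 15 to 4, the merged GR peaks from 61 to 30 and the share of them met by E2A from 49.2% to 20%. Leaving out each replicate in turn gave 16 to 21 genes with a GR peak, 9 to 20 with an E2A peak (9 without E2A replicate 1), 7 to 13 with a shared peak (7 without E2A replicate 1), 40 to 52 merged GR peaks (40 without GR replicate 2), 16.4% to 55% met by E2A (16.4% without E2A replicate 1), 22.5% to 34.6% at promoters and 24% to 25.6% with a GRE. Counting every peak within 50 kb of a GENCODE start site, whatever its nearest gene, raised the promoter share from 31.1% to 48.2%, and gave 29 genes with a GR peak. A GRE was found in 3.39% of windows with at most 1 mismatch and in 40.7% when the whole peak was searched, against 22%. Other alternatives, leaving out wide peaks, requiring 50% overlap and promoters by distance, moved none of these values beyond their intervals or by over 1.5 times. No paired analysis was possible because the results come from no test, and which GR and E2A samples share a liver is not stated. Gene counts under the alternatives were set beside the share of all genes only where stated above. The lists hold no depth, so the reliability of a single call cannot be given.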

Other observations

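The exact NR5A motif TCAAGGTCA, a sequence that LRH-1 can read, was in 3 of 59 GR windows at nuclear receptor genes (5.08%, 95% Wilson interval 1.74 to 13.9%), against 0.682% of all GR windows, and in 2 of 47 E2A windows (4.26%), against 0.716%. A match does not show which factor binds. The GR windows were those upstream of Esr1 (chr10:4586748-4587163), in an intron of Ppara (chr15:85771258-85772291) and in the farther region downstream of Nr0b2 (chr4:133563175-133563649). The E2A windows were the Ppara intron and the Esrra promoter. In upstream promoter windows of 250 bases it was in 127 of 32851 (0.387%). The motif was looked at after other values had been seen, the count is small, and no test was made.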
